A study of Mus musculus with 12 samples.

Results

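Wild-type mouse hippocampus at 12 months of age was compared with wild-type hippocampus at 3 months. The 6 libraries of this comparison were those titled wild type in a series of 12, with 3 libraries at each age. All 6 came from C57BL/6J mice labelled as non-transgenic littermates of a transgenic line (Tg396), and the labels named no treatment. The other 6 libraries, 3 at each age, came from that line, which carries N40K, a truncated U1-70K splicing protein that a modified CaMKIIa promoter drives in neurons. They share no library with the wild type and were used only to set a second age difference beside it. The RNA was selected for poly-A tails and sequenced as paired reads, and each value is in FPKM (fragments scaled to transcript length and to the mapped fragments of the library). A gene was tested if it reached 1 FPKM in at least 3 of the 6 libraries, which 13504 of 23352 entries did. The difference between ages is given on the scale of log2(FPKM + 1), as 12 minus 3 months with its standard error (SE), and a gene is called when its adjusted p from limma is under 0.05.

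The hippocampus stores and retrieves memories through a circuit of dentate granule neurons and CA pyramidal neurons. Its excitatory synapses use AMPA and NMDA type glutamate receptors, its inhibitory interneurons release GABA together with neuropeptides, and astrocytes clear glutamate from the synapse. Between young adulthood and middle age this tissue is known for a decline in the birth of new granule neurons and, later, for a rise of immune and glial genes.

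The libraries fell apart by age, and age coincided with other properties. Along a first principal component with 62.1% of the variance, all 3-month libraries lay on one side and all 12-month libraries on the other. Correlations of log2 values ran from 0.988 to 0.9964 within an age and from 0.9702 to 0.9846 between ages. Library depth, as estimated from the spacing of low values, was 77.9 to 83.7 M fragments at 3 months and 44.2 to 96.8 M at 12 months. The library names belong to 1 number series at 3 months and to another at 12 months, so age and the series of preparation cannot be told apart. The labels gave no sex, but Xist measured 14.6 and 13.5 FPKM in replicates 2 and 3 at 3 months and 0.0622 FPKM or less in the other 4 libraries. Choroid plexus markers were uneven. Ttr, the transthyretin gene of that tissue, measured 138.5, 121.8 and 5813 FPKM in the 3 libraries at 3 months and 1282, 1053 and 2152 FPKM at 12 months. The labels do not say whether each library was 1 mouse, so the p-values measure the spread between these libraries only. The extraction protocol speaks of tumour aliquots, whereas hippocampal markers were present in every library. The 27 pyramidal neuron markers summed to between 797.9 and 913.5 FPKM, and the 25 dentate granule neuron markers to between 398.4 and 445.7 FPKM.

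The age difference was broad and mostly small. Of the 13504 genes tested, 4492 were called (33.3%), 1390 of them higher at 12 months (10.3% of the genes tested) and 3102 lower (23%). Only 131 calls reached a difference of 1 on the log2 scale, 92 higher and 39 lower. Genes higher at 12 months made up 30.9% of the calls, but 54% after median-ratio scaling (14.6% of genes higher and 12.4% lower), 51.1% after quantile normalization (14.8% and 14.2%), 52.8% after removal of the trend with transcript length (11.8% and 10.5%) and 55.1% after removal of the trend with GC content (13.9% and 11.3%). With sex as a covariate over all 12 libraries, taken as Xist above 1 FPKM, 9.89% were called higher and 21% lower. In wild type only 3-month libraries passed that Xist level, so sex and age partly coincide. The median of all genes was -0.08 and moved to -0.01 with median-ratio scaling, so small falls depend on the scaling. With the 4 libraries that lack Xist reads, 1 at 3 months against 3 at 12 months, 669 genes were called, 2.98% of the genes tested higher and 1.97% lower. The libraries of the ages did not overlap for 50.6% of the genes, 15.8% higher and 34.8% lower.

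In the N40K libraries the same fit called 7395 genes, 15.7% of the genes tested higher and 39.1% lower. The age difference had the same sign in N40K for 4371 of the 4492 genes called in wild type (97.3%), and 3774 were called there in the same direction (84%). Both genotypes share the coincidence of age and library number series. The difference between the wild-type and the N40K age difference was called for 9 genes (0.0666%), 4 with wild type above N40K (0.0296%) and 5 with wild type below (0.037%).

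**Figure D1:**
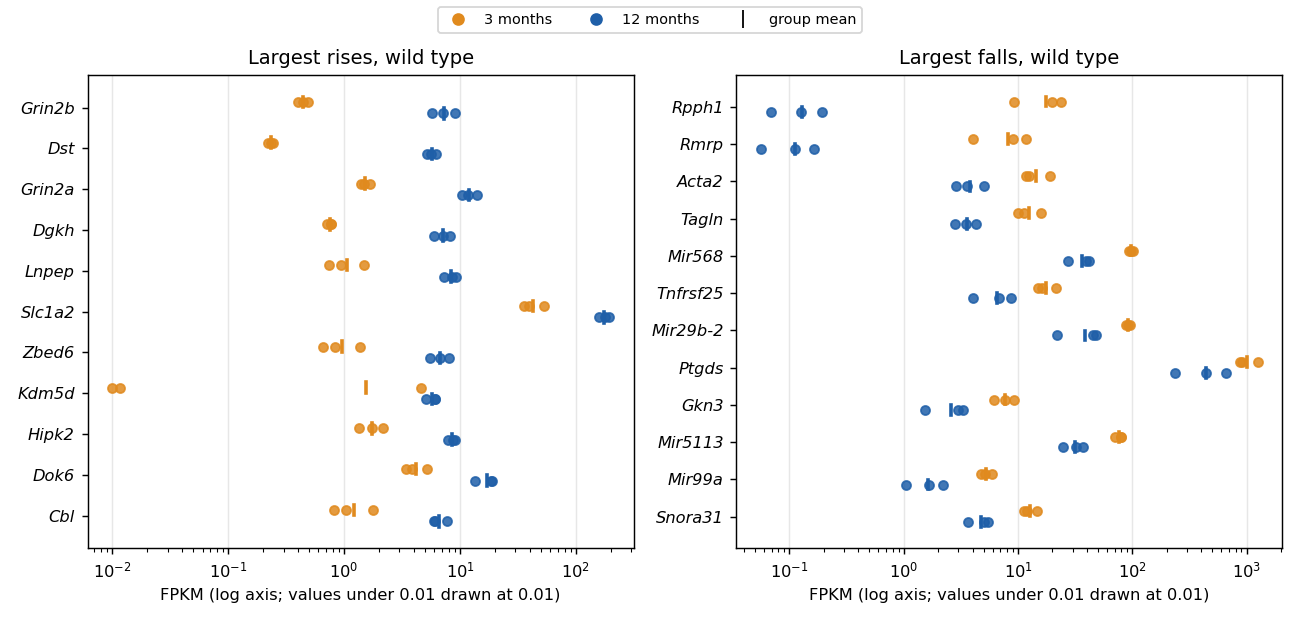
FPKM of 11 of the 12 largest rises and of the 12 largest falls in each of the 6 wild-type libraries on a log axis, with 3 dots and a bar at the mean per age; Kdm5d at 0 in 1 library is drawn at 0.01. The 3-month and 12-month dots of each gene do not overlap, and Grin2b moves from 0.396 to 0.484 FPKM at 3 months to between 5.75 and 9.11 FPKM at 12 months.

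The largest rise on the log2(FPKM + 1) scale was in Grin2b, which encodes the NMDA receptor subunit GluN2B. Its rank depended on the processing. After removal of the length trend Zbed6 rose by 2.02 and Grin2a by 1.97, against 1.84 for Grin2b. Grin2b measured 0.438, 0.484 and 0.396 FPKM at 3 months and 5.75, 7.07 and 9.11 FPKM at 12 months. Every library at 12 months was far above every library at 3 months. The difference was 2.51 ± 0.14 (SE), with an adjusted p of 0.000247, and 2.72 in N40K. Grin2a, the gene of the subunit GluN2A, had the third largest rise. It measured 1.39, 1.66 and 1.49 FPKM at 3 months and 10.3, 11.7 and 14.04 FPKM at 12 months, a difference of 2.36 ± 0.11 (adjusted p = 0.000247). Again the ages were widely apart. Slc1a2, which encodes the astrocytic glutamate transporter GLT-1, measured 35.7, 52.8 and 39.0 FPKM at 3 months and 157, 177 and 193 FPKM at 12 months. Slc1a2 rose by 2.04 ± 0.14 (adjusted p = 0.000348) from the highest 3-month level of these genes.

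Other rises among the 12 largest were in genes of several kinds. Dst, the gene of the cytoskeletal linker dystonin, rose by 2.44 from a mean of 0.232 ± 0.0099 to 5.69 ± 0.553 FPKM (SD, n = 3). The kinase genes Dgkh (diacylglycerol kinase eta) and Hipk2 rose by 2.20 and 1.81. Lnpep, which encodes an insulin-regulated aminopeptidase, rose by 2.19, the ubiquitin ligase gene Cbl by 1.80 and the adaptor gene Dok6 by 1.80. Zbed6 rose by 1.996, but its exons overlap those of Zc3h11a. Kdm5d, a Y-linked demethylase gene, measured 4.58, 0 and 0.0117 FPKM at 3 months and 6.04, 5.04 and 6.06 FPKM at 12 months. Both low values belong to the libraries with Xist reads, and the difference of 1.91 became 0.26 (adjusted p = 0.234) without these 2 libraries. The call of Kdm5d also ended when any library other than replicate 1 at 3 months was left out, whereas the other 11 kept theirs with each library left out in turn.

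Both genes with the largest falls encode RNA subunits of ribonucleases and not proteins. Rpph1, the RNA of RNase P, measured 23.9, 9.23 and 19.6 FPKM at 3 months and 0.191, 0.0694 and 0.127 FPKM at 12 months, a difference of -3.95 ± 0.29 (adjusted p = 0.000429). Rmrp, the RNA of RNase MRP, measured 11.6, 4.07 and 8.95 FPKM at 3 months and 0.0565, 0.164 and 0.112 FPKM at 12 months, a difference of -2.96 ± 0.29, and its exons overlap those of Ccdc107. Neither RNA is normally polyadenylated, and the libraries of the ages did not overlap for either. Acta2 and Tagln, genes of smooth muscle cells, followed with -1.68 and -1.55, and Tagln overlaps Pcsk7. Ptgds, the prostaglandin D synthase gene of leptomeningeal cells and oligodendrocytes, fell by 1.29, and Gkn3, an arterial endothelial gene, fell by 1.28. The death receptor gene Tnfrsf25 fell by 1.35, and the small nucleolar RNA Snora31 fell by 1.27.

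A further 4 of the 12 largest falls were microRNA loci. Poly-A selected libraries count fragments of longer transcripts over such a locus, not the mature microRNA. The mature sequences are shown to identify these loci, as RefSeq gives them on GRCm38.p6, 5′ to 3′ with the seed (bases 2 to 8) in capitals.
mmu-miR-568: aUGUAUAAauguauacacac
mmu-miR-29b-3p: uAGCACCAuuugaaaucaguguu
mmu-miR-5113: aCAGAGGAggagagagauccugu
mmu-miR-99a-5p: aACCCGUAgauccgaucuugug
The 4 seeds differ from each other. Mir568, at chr16:43640655-43640737 on the plus strand, measured 97.7, 94.3 and 102.0 FPKM at 3 months and 39.3, 27.4 and 41.5 FPKM at 12 months, a difference of -1.44 ± 0.14. It overlaps the exons of Zbtb20, a zinc finger gene of CA pyramidal neurons, which itself rose by 1.46 ± 0.10 from a mean of 0.449 to 3.00 FPKM. Reads of a small RNA locus and of its host cannot be told apart in these values. Mir29b-2 (chr1:195037040-195037120, plus strand) fell by 1.31 and overlaps Cd46. Mir5113 (chr15:80940039-80940120, plus strand, overlapping Tnrc6b) fell by 1.28, and Mir99a (chr16:77598936-77599000, plus strand) fell by 1.27. Of all 176 microRNA loci tested, 24 were called higher and 57 lower, with a median of -0.22. Over all genes 10.3% were called higher and 23% lower, with a median of -0.08.

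**Figure D2:**
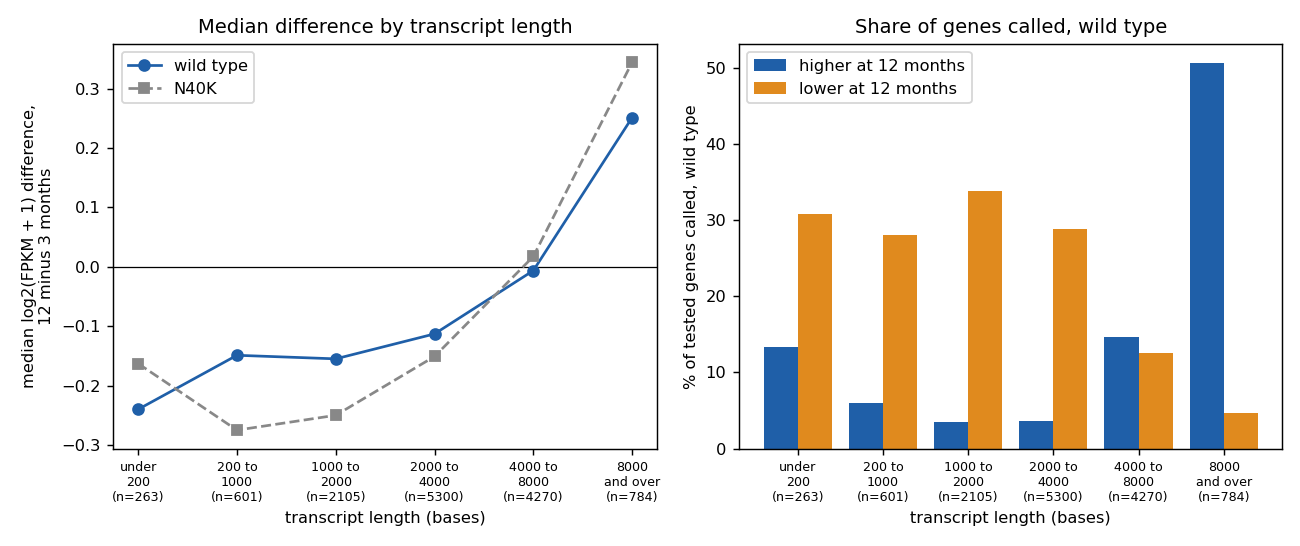
Median log2(FPKM + 1) difference between 12 and 3 months in 6 classes of transcript length, in wild type and N40K (left), and the share of genes in each class called higher or lower in wild type (right). In wild type the median is 0.25 and 50.6% of genes are called higher at 8000 bases and over, against -0.15 and 3.47% at 1000 to 2000 bases.

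The direction of the difference followed transcript length. Among the 784 genes of 8000 bases and over, as measured on the longest annotated transcript, the median difference was 0.25, with 50.6% called higher and 4.72% lower. Among the 2105 genes of 1000 to 2000 bases the median was -0.15, with 3.47% called higher and 33.8% lower. Across 13323 genes the difference correlated with length at a Spearman rho of 0.356 in wild type and 0.503 in N40K, and with GC content at -0.352 in wild type; genes are not independent replicates. The 31 rises of 1.5 or more came from genes with a median length of 10233 bases, against 3366 bases for all genes, and 29 of them rose by 1 or more in N40K. The 39 falls of 1 or more had a median length of 1066 bases. After removal of each library's trend with length, 3015 genes were called, 50.2% of the original calls were kept, and Grin2b, Grin2a and Slc1a2 still rose by 1.84, 1.97 and 1.75. Genes of 8000 bases and over were still called more often than others after this removal. Of them 24.4% were called higher and 18.5% lower, against 11.8% and 10.5% of all genes. Age and the library number series cannot be told apart in this trend.

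**Figure D3:**
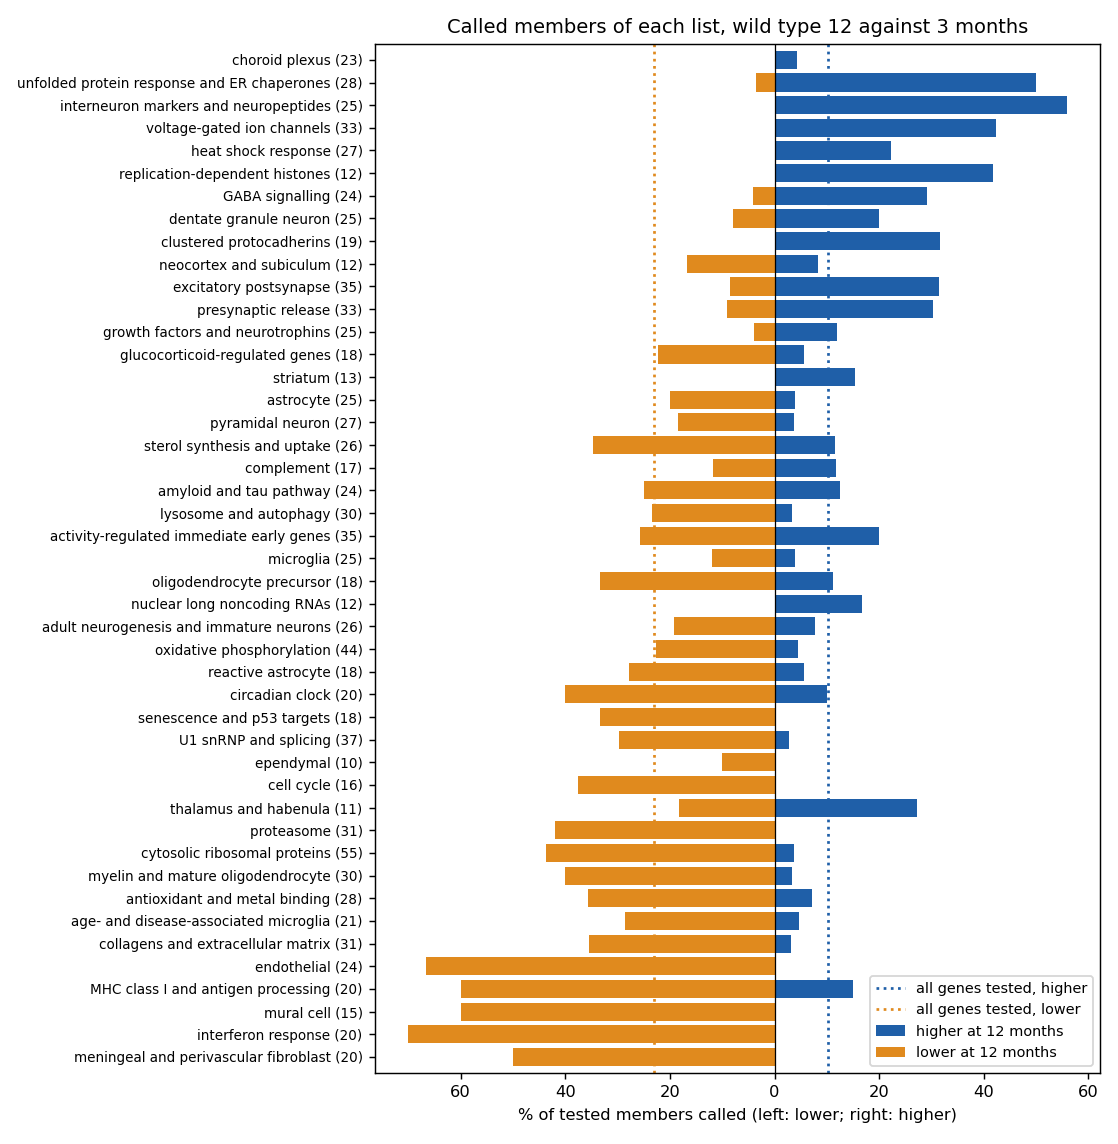
Share of the tested members of each gene list called higher (right) or lower (left) at 12 months in wild type, sorted by the list's median difference, with the number of tested members in brackets and dotted lines at the shares of all genes, 10.3% higher and 23% lower. Interneuron and unfolded protein response lists reach furthest right, and interferon, endothelial, mural cell and MHC class I lists furthest left.

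Glutamate receptor and scaffold genes of the excitatory postsynapse split by gene. Of 35 tested members 11 rose and 3 fell, with a median of 0.07. The AMPA receptor subunit gene Gria2 measured 75.7, 90.1 and 85.4 FPKM at 3 months and 115.3, 124 and 131 FPKM at 12 months. All 12-month values lay above all 3-month values, with a difference of 0.56 ± 0.08 (adjusted p = 0.00332) that became 0.31 after removal of the length trend. Homer1, the gene of a scaffold of metabotropic glutamate receptors, rose by 0.44. The fallers were Dlg4, which encodes the scaffold PSD-95, by 0.16, the kinase gene Camk2b by 0.23 and the adhesion gene Nlgn2 by 0.27, and none of these 3 kept its call under median-ratio scaling, while 6 members were called lower with the replicate number as a block. With each library left out in turn, 8 to 9 of the 11 rises and 1 to 2 of the 3 falls kept their call.

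Among voltage-gated ion channel genes 14 of 33 rose and 24 had a positive difference, with a median of 0.20. Kcnq3, a subunit gene of the M-type potassium channel, measured 3.15, 4.23 and 3.67 FPKM at 3 months and 11.8, 12.1 and 13.4 FPKM at 12 months, a rise of 1.53 ± 0.09. The libraries of the ages did not overlap. Kcnma1, the gene of the calcium-activated BK channel, rose by 1.44, the R-type calcium channel gene Cacna1e by 0.83 and the sodium channel gene Scn1a by 0.42. The channel genes are long, with a median of 8225 bases, and after removal of the length trend 9 of the 14 rises remained and 3 members were called lower. In N40K 20 members were called higher and 2 lower.

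GABA signalling genes were called higher for 7 of 24 members and lower for 1. Gad1 and Gad2, which encode the enzymes that make GABA, rose by 0.33 ± 0.06 and 0.46 ± 0.10. With sex as a covariate over 12 libraries they stood at 0.28 and 0.47, and both limma calls ended (adjusted p = 0.0743 and 0.0698). Gad1 measured 90.2, 90.7 and 87.8 FPKM at 3 months and 111, 121 and 107 FPKM at 12 months, with no overlap between ages. The GABA-A receptor subunit gene Gabrb1 rose by 1.48, although its exons overlap those of Gabra4. Of the 2 subunit genes of the GABA-B receptor, Gabbr2 rose by 0.45 ± 0.05 and Gabbr1 fell by 0.19 ± 0.05, a call that 4 of the 6 fits with a library left out and both other scalings ended. The presynaptic release list had 10 of 33 members higher and 3 lower, with 5 to 9 of the rises kept when a library was left out. The active zone scaffold genes Pclo and Bsn rose by 0.59 and 0.43, calls that ended after removal of the length trend, and the vesicle calcium sensor gene Syt1 by 0.24. Slc17a7, the vesicular glutamate transporter gene, fell by 0.22 and Syt7 by 0.41, and both calls ended under both other scalings.

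Interneuron and neuropeptide genes were higher at 12 months for 14 of 25 members, and 22 had a positive difference, with a median of 0.26. Cck, the cholecystokinin gene, measured 151, 150 and 132 FPKM at 3 months and 193, 219 and 178 FPKM at 12 months, a rise of 0.45 ± 0.09 (adjusted p = 0.0105). Cort, the cortistatin gene, measured 8.99, 7.89 and 8.75 FPKM at 3 months and 11.6, 13.04 and 13.3 FPKM at 12 months, a rise of 0.52 ± 0.07. Neither gene's ages overlapped. In N40K the difference was -0.34 for Cck and 0.06 for Cort, neither of them called. Crh, which encodes corticotropin-releasing hormone, rose by 0.54 and its binding protein gene Crhbp by 0.46, the tachykinin gene Tac1 by 0.51 and the cannabinoid receptor gene Cnr1 by 0.47. Erbb4, the neuregulin receptor gene of interneurons, rose by 1.78, the nitric oxide synthase gene Nos1 by 0.96 and the reelin gene Reln by 0.56. With 1 library left out, 9 to 14 of the 14 calls were kept, and with the libraries without Xist reads alone 2 were. That fit has 1 library at 3 months, and the list's median in it was 0.32, with Crh at 0.54, Crhbp at 0.56, Tac1 at 0.65, Reln at 0.60 and Cck at 0.38, none of these 5 called.

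In the unfolded protein response, by which cells raise the folding capacity of the endoplasmic reticulum (ER), 14 of 28 tested genes rose and 1 fell, with a median of 0.27 and 20 positive differences. Hspa5, which encodes the ER chaperone BiP, measured 64.7, 71.4 and 89.6 FPKM at 3 months and 146, 156 and 121 FPKM at 12 months. The ages did not overlap, and the difference was 0.90 ± 0.13 (adjusted p = 0.00402). Sdf2l1, the gene of a BiP partner, measured 5.09, 4.63 and 5.71 FPKM at 3 months and 12.0, 12.9 and 8.62 FPKM at 12 months, a rise of 0.97 ± 0.14. Calr, the gene of the lectin chaperone calreticulin, rose by 0.65 ± 0.08, from 145, 158 and 174 FPKM to 251, 268 and 233 FPKM. For all these genes replicate 3 was the lowest of the 12-month libraries. Hsp90b1 (GRP94) rose by 0.56, the disulfide isomerase gene Pdia6 by 0.65 and the secreted ER protein gene Manf by 0.75. The exons of these 3 overlap those of 1810014B01Rik, Atp6v1c2 and Rbm15b. The sensor gene Atf6 rose by 0.34, the degradation adaptor gene Sel1l by 0.39 and the transcription factor gene Xbp1 by 0.37, and Xbp1 lost its call in 5 of the 6 fits with a library left out. Ppib, a cyclophilin gene that overlaps Snx22, fell by 0.19, a call that both other scalings ended. Ddit3 (CHOP, overlapping Mars), the stress transcription factor gene linked to cell death, differed by 0.09 ± 0.07 with an adjusted p of 0.327, and by 0.25 (adjusted p = 0.0272) after removal of the length trend.

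In N40K 5 unfolded protein response genes were called higher and 10 lower with age, with a median of -0.04. Hspa5 differed there by 0.13, Sdf2l1 by -0.19 and Calr by 0.25. The test of the difference between genotypes called no member of the list, with adjusted p of 0.0538 for Sdf2l1 and 0.129 for Hspa5. Of the 14 rises in wild type, 10 to 13 were kept with 1 library left out, 14 after removal of the length trend and 9 in the libraries without Xist reads, where the median was 0.36 with 1 library at 3 months. Heat shock genes, mitochondrial chaperones among them, were called higher for 6 of 27 members, among them Hspa4l by 0.68, Hspa1b by 0.62 and Hsph1 by 0.43, and 19 had a positive difference, with 3 to 6 calls kept when a library was left out. In N40K Hspa1b was called lower, by 0.33.

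The promoters of 4 risers show the ER stress element, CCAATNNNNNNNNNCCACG on either strand, the known target of Atf6 and Nfy. Each is read from RefSeq's table on GRCm38.p6, 5′ to 3′ on the gene's strand and upstream of the start site, with the match in capitals.
Hspa5, chr2:34771940-34772089, plus strand: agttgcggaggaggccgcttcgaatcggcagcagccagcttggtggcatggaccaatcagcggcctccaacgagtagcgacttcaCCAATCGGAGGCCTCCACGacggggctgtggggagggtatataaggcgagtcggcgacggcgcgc
Hsp90b1, chr10:86705445-86705664, minus strand: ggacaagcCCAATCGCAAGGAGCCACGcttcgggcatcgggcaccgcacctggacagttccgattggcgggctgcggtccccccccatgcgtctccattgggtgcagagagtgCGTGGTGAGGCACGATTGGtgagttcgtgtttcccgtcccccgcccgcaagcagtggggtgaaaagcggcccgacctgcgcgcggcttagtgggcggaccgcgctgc
Calr, chr8:84846932-84847101, minus strand: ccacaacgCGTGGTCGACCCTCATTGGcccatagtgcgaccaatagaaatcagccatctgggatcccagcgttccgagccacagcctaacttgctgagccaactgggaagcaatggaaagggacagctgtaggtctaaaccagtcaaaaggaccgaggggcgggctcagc
Pdia6, chr12:17266439-17266588, plus strand: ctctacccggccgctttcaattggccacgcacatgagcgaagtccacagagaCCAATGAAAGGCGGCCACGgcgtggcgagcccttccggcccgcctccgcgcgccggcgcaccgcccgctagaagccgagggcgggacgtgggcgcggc
These letters occur within 250 bases upstream of 37 of 32851 promoters (0.113%) and of 15 of the 9761 tested genes with a promoter in the table (0.154%). Among the 23 list members with a promoter, 6 of the 11 risers and 2 of the other 12 hold them. The match is a description of the sequence and the list was gathered from genes known to respond through it.

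**Figure D4:**
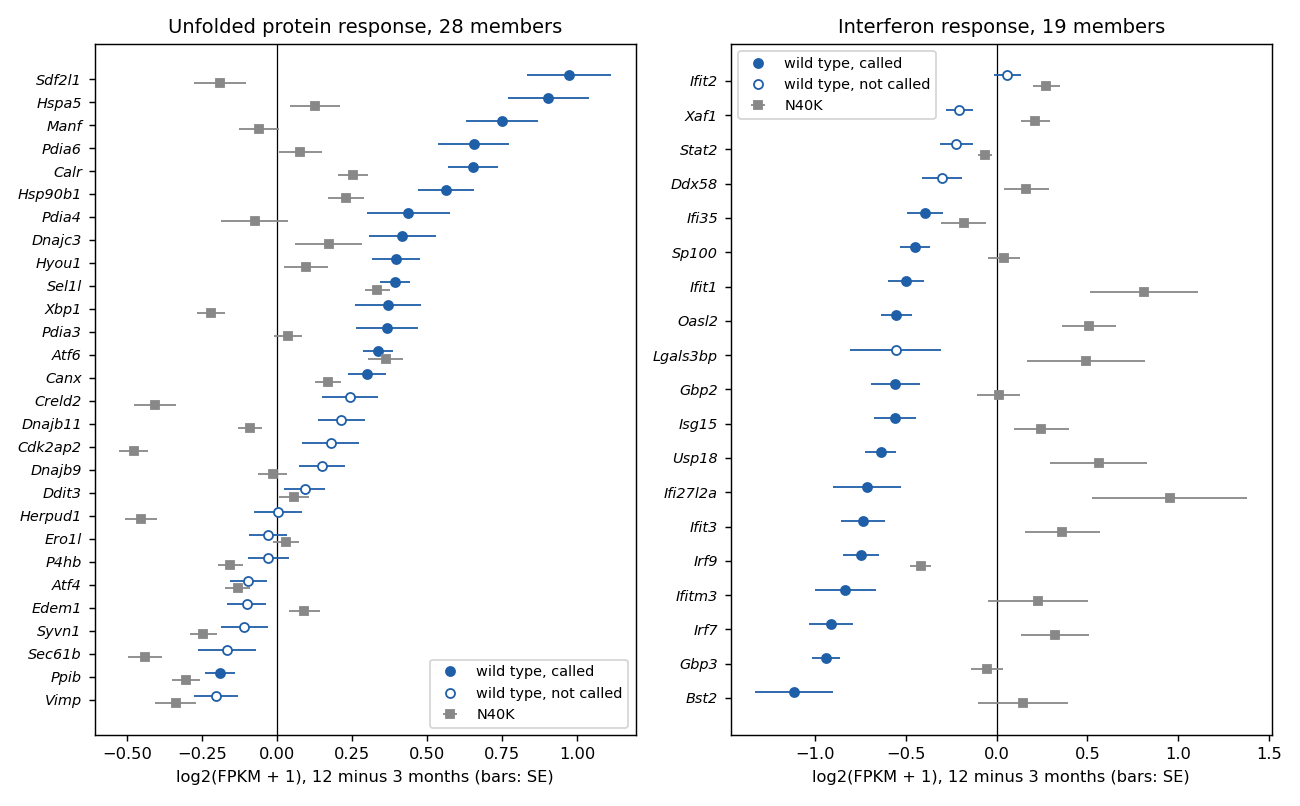
Difference between 12 and 3 months on the log2(FPKM + 1) scale, with SE, for the 28 tested members of the unfolded protein response list (left) and 19 of the 20 tested members of the interferon list (right), in wild type (circles, filled where called) and N40K (squares). In wild type 14 unfolded protein response genes are called above 0 and 14 interferon genes below 0, while the N40K squares of most of these genes lie nearer to 0 or on the other side.

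Genes of the interferon response, which cells switch on against viruses through interferon receptors, were lower at 12 months. Of 20 tested members 14 fell and 1 had a positive difference. The median was -0.56, and a further 11 listed genes stayed below the filter. Bst2, which encodes the virus-tethering protein tetherin, measured 10.2, 8.09 and 15.2 FPKM at 3 months and 4.82, 3.44 and 5.23 FPKM at 12 months. The lowest 3-month library lay above the highest 12-month library, and the difference was -1.11 ± 0.21 (adjusted p = 0.00881). Gbp3, a guanylate-binding protein gene, measured 3.94, 3.84 and 3.68 FPKM at 3 months and 1.73, 1.37 and 1.44 FPKM at 12 months, a difference of -0.94 ± 0.08. Ifit3, an interferon-induced RNA-binding protein gene, measured 5.45, 6.07 and 5.68 FPKM at 3 months and 3.92, 2.69 and 2.65 FPKM at 12 months, a difference of -0.73 ± 0.12. The ages were apart for both genes. Ifitm3, which blocks viral entry, fell by 0.83, the deubiquitinase-like regulator gene Usp18 by 0.64, Isg15, a ubiquitin-like modifier gene, by 0.56 and Ifit1 by 0.50. The transcription factor genes Irf7 and Irf9 fell by 0.91 and 0.75, and their exons overlap Phrf1 and Rnf31. Ifit2, at 0.06 ± 0.08, was not called.

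In N40K 2 interferon genes were called higher and 1 lower with age, and the median was 0.22. Ifit3 differed there by 0.36, Usp18 by 0.56 and Bst2 by 0.15, none of them called. The N40K libraries summed to 88.3, 90.3 and 79.7 FPKM over the list at 3 months and to 79.1, 96.8 and 146.7 FPKM at 12 months. The highest, replicate 3 at 12 months, also held the most choroid plexus RNA of the N40K libraries (3898 FPKM). The test of the difference between genotypes called Gbp3 alone (adjusted p = 0.0226), with 0.109 for Irf7 and 0.187 for Bst2. The call of Gbp3 in this limma test ended with sex as a covariate (adjusted p = 0.0732). It also ended without wild-type replicate 1, 2 or 3 at 3 months (adjusted p = 0.101, 0.0887 and 0.0659). Of the 14 falls, 12 to 14 were kept with 1 library left out, 10 after removal of the length trend and 4 with the libraries without Xist reads. That last fit has 1 library at 3 months. The list's median there was -0.51, and Ifit3 stood at -0.67, Ifitm3 at -0.76 and Isg15 at -0.61, none of these 3 called. Endothelial and mural markers were lower in the same libraries, and their part in the interferon values was not tested. Summed over the list in wild type, the interferon genes stood at 101.2, 94.4 and 123 FPKM at 3 months and 69.1, 53.2 and 67.6 FPKM at 12 months. The 24 endothelial markers summed to 553, 521 and 676 FPKM at 3 months and to 451, 439.9 and 456 FPKM at 12 months, and the 25 microglia markers to 481, 466 and 461 FPKM and to 413, 462 and 421 FPKM.

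The interferon-stimulated response element, searched as GAAANNGAAA on both strands, lies in the promoters of 6 of the 12 fallers with a promoter in the table and of 1 of the other 5 members. It occurs in 978 of 32851 promoters (2.977%) and for 279 of the 9761 tested genes with a promoter in the table (2.858%). The list was gathered from genes known to respond to interferon, so the match is a description of the sequence only. The stretches below are given as above, with the element in capitals.
Ifit1, chr19:34640769-34640888, plus strand: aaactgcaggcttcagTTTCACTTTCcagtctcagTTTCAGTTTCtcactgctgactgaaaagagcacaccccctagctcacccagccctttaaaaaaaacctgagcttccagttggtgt
Ifit3, chr19:34583369-34583528, plus strand: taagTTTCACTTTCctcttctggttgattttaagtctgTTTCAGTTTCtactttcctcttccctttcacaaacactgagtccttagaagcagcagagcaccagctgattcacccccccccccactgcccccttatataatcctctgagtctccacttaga
Bst2, chr8:71537473-71537602, minus strand: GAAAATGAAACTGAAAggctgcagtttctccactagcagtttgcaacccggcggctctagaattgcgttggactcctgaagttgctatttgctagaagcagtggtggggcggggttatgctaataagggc
Isg15, chr4:156200819-156200938, minus strand: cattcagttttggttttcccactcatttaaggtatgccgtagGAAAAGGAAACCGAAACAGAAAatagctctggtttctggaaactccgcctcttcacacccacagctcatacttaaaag
Ifit1 and Ifit3 carry 2 separate matches each, and those of Bst2 and Isg15 overlap.

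Genes of MHC class I antigen presentation fell beside the interferon genes. Of 20 tested members 12 fell and 3 rose, and all 3 risers (Calr, Canx and Pdia3, the last overlapping Catsper2) are ER chaperone genes that the unfolded protein response list also holds. H2-K1, a class I heavy chain gene, measured 23.2, 26.2 and 27.6 FPKM at 3 months and 15.5, 13.1 and 13.3 FPKM at 12 months, a difference of -0.83 ± 0.09 (adjusted p = 0.0013) with no overlap between ages. H2-Q4 fell by 1.07, H2-T23 by 0.60 and H2-D1 by 0.58. Class I genes are near-identical copies of each other, so how their reads divide among them is uncertain. The peptide transporter gene Tap1, which overlaps Psmb9, fell by 0.40 and the immunoproteasome gene Psmb8 by 0.51. B2m, the common light chain gene, measured 113, 115 and 113 FPKM at 3 months and 102, 95.8 and 90.3 FPKM at 12 months, a small fall of 0.25 that both other scalings ended. In N40K 2 members were called higher and 5 lower, and the median was 0.02.

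Vascular genes were lower at 12 months. Of 24 endothelial markers 16 fell and 1 had a positive difference, with a median of -0.36. Of 15 mural cell markers (smooth muscle cells and pericytes) 9 fell and 2 had a positive difference, with a median of -0.40. In whole tissue, fewer cells of a type and less RNA per cell cannot be told apart. The smooth muscle actin gene Acta2 measured 12.5, 11.8 and 18.9 FPKM at 3 months and 4.99, 2.87 and 3.55 FPKM at 12 months, a difference of -1.68 ± 0.20 (adjusted p = 0.00212). Tie1, an endothelial receptor gene, measured 5.18, 4.55 and 5.73 FPKM at 3 months and 2.29, 2.01 and 2.47 FPKM at 12 months, a difference of -0.92 ± 0.09. All 3-month libraries exceeded all 12-month libraries for both genes. Myh11 fell by 1.36 and Myl9 fell by 1.25, both contractile genes of smooth muscle, and the pericyte genes Vtn and Pdgfrb fell by 0.79 and 0.40. Among barrier genes the organic anion transporter Slco1a4 fell by 0.82, the glucose transporter Slc2a1 by 0.50 and the tight junction gene Cldn5 by 0.47, and the endothelial genes Itm2a and Pecam1 fell by 0.82 and 0.40. With 1 library left out, 12 to 14 endothelial and 7 to 8 mural calls were kept. In N40K the medians were -0.17 and -0.18, with 10 endothelial and 8 mural markers called lower.

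Markers of meningeal and perivascular fibroblasts, a layer that dissection can carry along, were lower for 10 of 20 members, with a median of -0.71. Ptgds measured 912, 877 and 1246 FPKM at 3 months and 659, 236 and 437 FPKM at 12 months. The ages did not overlap, and the call, at an adjusted p of 0.0244, ended without replicate 1 or 3 at 3 months or without replicate 3 at 12 months. The collagen gene Col1a2 fell by 1.07 and Col3a1 fell by 0.93, with their highest values in replicate 3 at 3 months, 9.85 and 2.63 FPKM. That library also held the most choroid plexus RNA. The 23 choroid plexus markers summed to 260.2, 265 and 7128 FPKM at 3 months and to 1724, 1389 and 2812 FPKM at 12 months. The fibroblast markers summed to 1030, 1018 and 1518 FPKM at 3 months and to 787, 342 and 573 FPKM at 12 months. Without replicate 3 at 3 months 5 fibroblast markers kept their call, 18 of the 23 choroid plexus markers were called higher at 12 months, against 1 with all libraries, and 12 endothelial and 7 mural calls were kept. The part of choroid plexus and meningeal tissue in the vascular lists was not tested. Among 31 collagen and matrix genes 11 fell and 1 rose (3 with the replicate number as a block). Fallers were Col4a1 of the vascular basement membrane by 0.54 (overlapping Col4a2), fibronectin Fn1 by 0.53 and brevican Bcan by 0.43. With 1 library left out 6 to 9 of the 11 falls were kept. The call of Fn1 ended without replicate 2 or 3 at 3 months or replicate 3 at 12 months, under median-ratio scaling and after removal of the GC trend, and that of Bcan without replicate 1 at 3 months, under both other scalings and after removal of the length or the GC trend. Tnr, the tenascin-R gene of perineuronal nets, rose by 1.69, from 4.18, 5.46 and 5.32 FPKM to 16.8, 17.1 and 20.9 FPKM.

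**Figure D5:**
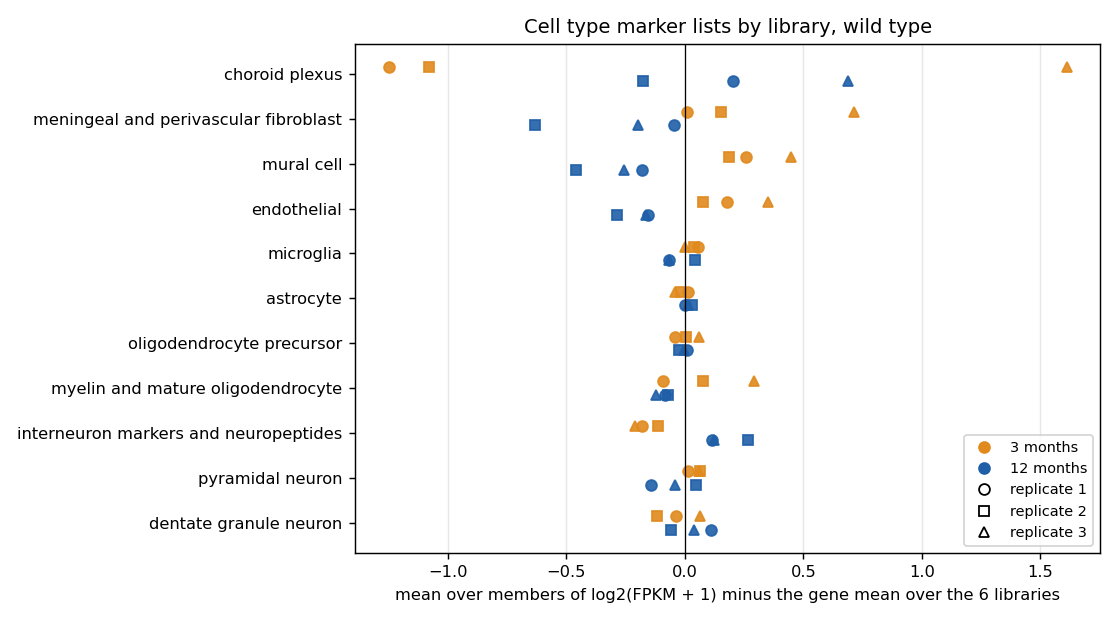
Level of 11 cell type marker lists in each wild-type library, as the mean over members of log2(FPKM + 1) minus the gene's mean over the 6 libraries; color gives the age and shape the replicate. Endothelial and mural markers lie lower in all 12-month than in all 3-month libraries, whereas choroid plexus markers run from -1.25 to 1.61 within the 3-month group.

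Myelin genes fell for 12 of 30 members and rose for 1, with a median of -0.22. Summed over the list they stood at 2828, 3188 and 4304 FPKM at 3 months and 2907, 2907 and 2956 FPKM at 12 months. Replicate 1 at 3 months lay below every 12-month library, and replicate 3, the library with the most choroid plexus and fibroblast RNA, lay highest. Without replicate 3 at 3 months the median was -0.14, with 11 members called lower and 2 higher. Opalin, a late oligodendrocyte gene, measured 32.2, 36.0 and 33.9 FPKM at 3 months and 21.01, 17.8 and 18.7 FPKM at 12 months, a difference of -0.80 ± 0.07 (adjusted p = 0.000912). Mog measured 42.3, 47.7 and 50.9 FPKM at 3 months and 27.1, 30.1 and 29.4 FPKM at 12 months, a difference of -0.68 ± 0.08. The ages were apart for both of these surface protein genes. Mag and Gsn fell by 0.68 and 0.73, whereas Anln, an anillin gene of the myelin sheath, rose by 0.56. Mbp, the gene of myelin basic protein, differed by -0.16 ± 0.08 and was not called. The list's median moved to -0.01 when sex was a covariate over 12 libraries, with 4 members called higher and 10 lower. Precursor markers fell for 6 of 18 members, among them Bmp4 by 0.64, Sox8 by 0.36 and Gpr17 by 0.28, and rose for 2. Sox8 overlaps 2810468N07Rik and Gpr17 overlaps Lims2. In the fits with 1 library left out, 3 to 6 of these falls were kept.

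Calls in the astrocyte and microglia marker lists were no more frequent than over all genes, of which 10.3% were called higher and 23% lower. Among 25 astrocyte markers Slc1a2 rose and 5 fell, and with 1 library left out 0 to 3 of the falls were kept. Gfap, the intermediate filament gene of reactive astrocytes, measured 74.8, 78.3 and 80.5 FPKM at 3 months and 71.9, 92.0 and 75.5 FPKM at 12 months. These ranges overlapped, and the difference was 0.03 ± 0.09. Of 18 reactive astrocyte genes the complement gene C4b rose by 0.55 ± 0.08, from 13.1, 15.6 and 15.5 FPKM to 21.3, 21.6 and 23.3 FPKM, and 5 fell, such as Vim by 0.68. Across 17 complement genes 2 rose and 2 fell. Of 25 microglia markers, the fractalkine receptor gene Cx3cr1 rose by 0.21 and 3 fell (5 with the replicate number as a block), among them the growth factor receptor gene Csf1r by 0.22, which overlaps Hmgxb3. Of 21 genes linked to aged or diseased microglia 1 was called higher and 6 lower, with a median of -0.30 and 2 positive differences. With 1 library left out 4 to 6 of the falls were kept and the rise was lost, and the median was -0.15 without replicate 3 at 3 months. With the replicate number as a block 9 were called lower and 0 higher. Lgals3 fell by 0.81, Lyz2 by 0.69 and the lysosomal gene Cd68 by 0.41. The call of Cx3cr1 ended without replicate 1 or 3 of either age.

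Neuron marker lists were set against all genes, of which 10.3% were called higher and 23% lower. In the main fit pyramidal neuron markers exceeded neither share, and dentate granule markers exceeded the share of rises only. Of 27 pyramidal neuron markers 1 rose (4 with the replicate number as a block) and 5 fell, among them Rgs14, a signalling gene of area CA2, by 0.47 and Iyd by 0.58. Of 25 dentate granule markers 5 rose and 2 fell, and the granule neuron transcription factor gene Prox1 measured 6.17, 5.96 and 6.76 FPKM at 3 months and 12.6, 9.39 and 11.2 FPKM at 12 months. Prox1 rose by 0.72 ± 0.10 without overlap, and Zfp536 by 0.77. With 1 library left out 2 to 5 of the 5 dentate rises were kept. Among 26 genes of adult neurogenesis 2 rose and 5 fell, shares not above the 10.3% and 23% of all genes. Of these falls 2 to 3 were kept when a library was left out. Dcx, the microtubule gene of immature neurons, measured 2.08, 2.32 and 1.99 FPKM at 3 months and 1.98, 1.62 and 2.06 FPKM at 12 months, with overlapping ranges and a difference of -0.12 ± 0.09 (adjusted p = 0.322). After removal of the length trend Dcx was called lower, at -0.31 (adjusted p = 0.0237). Sox11, a transcription factor gene of new neurons, fell by 0.31, Neurod1 by 0.26 (overlapping Cerkl) and Marcksl1 by 0.49, and the call of Sox11 ended without replicate 2 or 3 at 3 months. Of 16 cell cycle genes 6 fell and 2 had a positive difference. The fallers included the replication gene Mcm6 by 0.42, the histone variant gene H2afz by 0.27 and the cyclin gene Ccna2, which overlaps Exosc9, by 0.29, with 1 to 6 calls kept when a library was left out. Markers of neighbouring regions were called higher or lower for 3 and 2 of 11 thalamic genes, 1 and 2 of 12 neocortical genes, with 3 of the latter higher under the replicate block. Of 13 striatal genes 2 were called higher, of 10 ependymal genes 1 was called lower, and none of 7 blood genes was called.

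Activity-regulated genes moved in both directions. Of 35 immediate early genes 7 rose and 9 fell. The falls were a share near the 23% of all genes, and the rises were above the 10.3%. The list's median was -0.09, against -0.08 over all genes. With the replicate number as a block 10 were called higher and 15 lower, against 11.5% and 26.2% of all genes. Npas4, a transcription factor gene that neurons switch on with calcium entry, measured 6.65, 7.36 and 5.95 FPKM at 3 months and 2.98, 2.51 and 3.30 FPKM at 12 months, a difference of -0.96 ± 0.10 (adjusted p = 0.0013). Gadd45g measured 14.1, 14.6 and 16.1 FPKM at 3 months and 7.66, 8.16 and 8.23 FPKM at 12 months, a difference of -0.82 ± 0.06. The ages did not overlap for either gene. Cyr61 fell by 0.73, Klf4 by 0.66 and Egr1 by 0.44, and the activin subunit gene Inhba rose by 0.94 and Jund by 0.41. The classical markers Fos and Arc varied within an age, with 4.37, 8.27 and 8.39 FPKM for Fos and 32.2, 40.5 and 53.5 FPKM for Arc at 3 months. Fos measured 3.26, 5.39 and 5.32 FPKM and Arc 15.3, 28.6 and 32.3 FPKM at 12 months, and both genes overlapped between ages and were not called. With the replicate number as a block both were called, Fos at -0.48 (adjusted p = 0.00735) and Arc at -0.74 (adjusted p = 0.00669). Fos was also called without replicate 1 at 3 months, at -0.75 (adjusted p = 0.0337). In N40K 20 members were called lower with age, where Fos fell by 1.24 and Jun fell by 0.63. Jun differed by -0.03 in wild type, and the difference between genotypes was called for it (adjusted p = 0.038). That limma call ended with sex as a covariate (adjusted p = 0.0786).

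Circadian clock genes were lower for 8 of 20 members and higher for 2, with 4 to 6 of the falls kept when a library was left out. Dbp, a transcription factor gene at the output of the clock, measured 36.6, 33.1 and 37.5 FPKM at 3 months and 20.9, 19.0 and 20.3 FPKM at 12 months. Its ages did not overlap, and the difference was -0.80 ± 0.06 (adjusted p = 0.000544), with exons that overlap Sphk2. The repressor genes Per1, Cry1 and Per2 fell by 0.60, 0.49 and 0.41, and Nr1d1, which overlaps Thra, by 0.39. Clock rose by 0.83 and Rora by 1.19, while Arntl, the partner of Clock, differed by 0.15 ± 0.05 (adjusted p = 0.0603) and was called higher under median-ratio scaling (0.22, adjusted p = 0.0233), quantile normalization, removal of the length or the GC trend and in the fit over 12 libraries. The labels give no time of day. The call of Per2 ended without replicate 2 or 3 at 3 months or replicate 1 at 12 months. Among 18 glucocorticoid-regulated genes 1 rose and 4 fell, the latter a share near the 23% of all genes.

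Calls among the short transcripts of protein and energy production depended on the length trend and on single libraries. Of 55 ribosomal protein genes 24 fell and 2 rose, with a median of -0.19 and a median length of 1120 bases. Rplp2 measured 408, 375 and 402 FPKM at 3 months and 234, 264 and 234 FPKM at 12 months, a difference of -0.69 ± 0.07, and overlaps Snora52. Rpl26 fell by 0.49. Rpl13 and Rps13 rose by 0.51 and 0.62, and Rpl13 overlaps Snord68. After removal of the length trend 8 ribosomal protein genes were called lower and 5 higher, and without replicate 2 at 12 months 39 were called lower and 2 higher. With 1 library left out 9 to 24 of the 24 falls were kept, the fewest without replicate 1 at 3 months. Of 31 proteasome genes 13 fell, such as Psma7 and Psmb5 by 0.37 each, and 2 after removal of the length trend, and 6 to 13 of the falls were kept with a library left out. Of 44 oxidative phosphorylation genes 2 rose and 10 fell, the latter a share near the 23% of all genes, and 3 to 10 of these falls were kept with a library left out, again the fewest without replicate 1 at 3 months. Ndufs7 of complex I fell by 0.42 and Cox4i1 of complex IV, which overlaps Emc8, by 0.33, while Cox8a rose by 0.51 ± 0.07 and Cox5b by 0.31. Cox8a measured 384, 361 and 334 FPKM at 3 months and 515, 540.2 and 486 FPKM at 12 months, and the ages did not overlap. After removal of the length trend 8 members of that list were called higher and 2 lower. In N40K 51 ribosomal protein, 28 proteasome and 32 oxidative phosphorylation genes were called lower.

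Smaller lists were set against all genes, of which 10.3% were called higher and 23% lower. Of 18 p53 and senescence genes 6 fell and 4 had a positive difference, the former including Trp53 itself by 0.53 ± 0.07, its inhibitor gene Mdm2 by 0.36 and the cell death gene Bax by 0.44, with 3 to 6 of the falls kept when a library was left out. Of 12 replication-dependent histone genes 5 were called higher (3 with the replicate number as a block), among them Hist1h2bc by 0.44, with 2 to 4 kept when a library was left out, and in N40K 1 was called higher and 5 lower. Of 12 nuclear long noncoding RNAs 2 rose and 0 fell, with a median of -0.10. The share called was below the 33.3% of all genes. The conserved 1700020I14Rik (Cyrano) measured 10.5, 13.7 and 11.9 FPKM at 3 months and 39.9, 42.0 and 42.6 FPKM at 12 months, a rise of 1.72 ± 0.09. Malat1 measured 35.0, 36.6 and 39.2 FPKM at 3 months and 109, 49.1 and 101.4 FPKM at 12 months, with the values of replicate 2 the lowest at 12 months, and its call, a rise of 1.13, ended without replicate 1 at 3 months or replicate 3 at 12 months. Among 19 clustered protocadherin genes 6 were called higher, and 15 had a positive difference.

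Snrnp70, the endogenous gene of U1-70K, measured 179.0, 160.8 and 179.1 FPKM at 3 months and 138, 96.0 and 133 FPKM at 12 months in wild type. The ages did not overlap, with a difference of -0.51 ± 0.13 (adjusted p = 0.0241), and -0.42 in N40K, where reads of transgene and gene are not separated. The call ended without replicate 1 or 3 at 3 months, under both other scalings and after removal of the length trend. Of 37 splicing genes 11 fell and 1 rose, among the former Luc7l2, a U1-associated factor gene, by 0.76 ± 0.09 and Srsf5 by 0.48. Hnrnpu, which encodes a nuclear matrix RNA-binding protein and overlaps Cox20, measured 120, 122 and 118 FPKM at 3 months and 117, 105 and 118 FPKM at 12 months and was not called, but stood at -0.21 (adjusted p = 0.0207) after removal of the length trend.

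Genes tied to Alzheimer's disease were called about as often as all genes. Of 24 amyloid and tau genes 3 rose and 6 fell, shares near the 10.3% and 23% of all genes. App, the precursor gene, measured 465, 485 and 493 FPKM at 3 months and 456, 464 and 470 FPKM at 12 months, with overlapping ages and a difference of -0.05 ± 0.06, but was called lower, at -0.20 (adjusted p = 0.027), after removal of the length trend. The tau gene Mapt differed by 0.12 ± 0.05 (adjusted p = 0.0827) and was called higher under median-ratio scaling (0.19, adjusted p = 0.0225), quantile normalization (0.21), removal of the GC trend (0.22), both fits over 12 libraries and without replicate 2 at 12 months. Sorl1, a sorting receptor gene for App, rose by 0.89 ± 0.09, and Mme, the gene of the amyloid-degrading enzyme neprilysin, by 0.39. The γ-secretase genes Aph1a (overlapping Car14) and Ncstn (overlapping Copa) fell by 0.42 and 0.40. Of 30 lysosome genes 7 fell, a share near the 23% of all genes, and 1 rose. The fallers included progranulin, Grn, by 0.49, which overlaps Fam171a2. Of 28 antioxidant and metal genes 10 fell and 2 rose. Tfrc, the transferrin receptor gene, measured 29.0, 30.4 and 26.3 FPKM at 3 months and 18.7, 17.5 and 18.5 FPKM at 12 months, a difference of -0.62 ± 0.06 (adjusted p = 0.0013), against -0.08 in N40K. The ferritin light chain gene Ftl1 fell by 0.39 and the metallothionein gene Mt3 by 0.36. The call of Mt3 ended in 4 of the 6 fits with a library left out, under median-ratio scaling and after removal of the length or the GC trend, and the list kept 6 to 9 of its 10 falls with a library left out. Of 26 sterol genes 3 rose and 9 fell, with 4 to 9 of the falls kept when a library was left out, and of 25 growth factor genes 3 rose (5 with the replicate number as a block) and 1 fell.

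For several lists the split between higher and lower calls depended on the scaling. Under median-ratio scaling 5 amyloid and tau genes were called higher and 3 lower, 4 clock genes higher and 4 lower, 9 immediate early genes higher and 8 lower, and 3 sterol genes higher and 4 lower. Oxidative phosphorylation genes split into 3 higher and 5 lower under that scaling and into 7 higher and 7 lower under quantile normalization. Interferon genes kept 14 calls lower and endothelial markers 11 and 14 under these scalings, and unfolded protein response genes were called higher for 17 and 16 members.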

How the data were processed

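The authors deposited FPKM values in 1 table for the series, made from poly-A TruSeq libraries per the labels. CASAVA, STAR and BWA, with the build mm9, appear in the submitters' processing notes, with no role or version. How fragments were counted, with which annotation and whether by strand is not given in the sources used here. Overlapping genes are therefore named as uncertain. Of 23352 entries, 128 with joined names, 22883 (97.992%) matched GENCODE M21, used for lengths, GC content and overlaps only. Depth was estimated from steps of 1143 receptor genes, of whose values 52.2% to 67.0% came out whole within 0.03 fragments, so no count test was run.

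FPKM were tested unscaled as log2(FPKM + 1) with limma 3.58.1 in R 4.3.3, two-sided, with a mean-variance trend and Benjamini-Hochberg adjustment over 13504 genes. N40K libraries were fitted alike on the same genes. The difference between genotypes, one limma fit over 12 libraries, was added after seeing the data. The main fit paired no libraries, and the labels name no pairs. An alternative fit took the replicate number as a block, since deviations from the age means correlated at 0.245, 0.282 and 0.354 for equal numbers. These correlations come from the same values that the fit tests. The procedure was tested on simulated data. Tables and plots were made in Python 3.11.15 with numpy 2.4.6, pandas 2.3.3 and matplotlib 3.10.9.

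The comparison, its gene lists and the rule for named genes were chosen with earlier results of these data known. The rule took Snrnp70, Hnrnpu, the 12 largest rises and falls among called genes with a single symbol, no overlap between ages and a mean of at least 5 FPKM in the higher group, and list members that were called or had the smallest p. Some genes that the rule took are not reported here. Markers that were not called are named for their known role.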

Additional observations from a re-analysis of the deposited data

Results flagged for a closer look

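The age difference in wild type differed from that in N40K for 9 entries in limma, and each is given as the wild-type minus the N40K difference on the log2(FPKM + 1) scale. In 5 of them the wild-type difference was the lower. Gbp3 stood at -0.89 (-0.94 in wild type and -0.05 in N40K, adjusted p = 0.0226), Tfrc at -0.54 (-0.62 and -0.08) and Mir23b at -0.68 (-1.06 and -0.38). LOC547349 stood at -0.79 (-0.90 and -0.12), and the joined class I entry H2-D1;H2-L at -0.68 (-0.91 and -0.22). In the other 4 the wild-type difference was the higher. Jun stood at 0.61 (-0.03 and -0.63, adjusted p = 0.038), Ramp2, a receptor component gene that overlaps Vps25, at 0.50 (-0.44 and -0.95), Klhl26 at 0.40 (-0.16 and -0.55) and 9530052E02Rik, which overlaps Irs2, at 0.84 (0.34 and -0.49).

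With sex as a covariate 0 entries were called in limma (1769 at an unadjusted p under 0.05, and a smallest adjusted p of 0.0676). Left out in turn, 6 of the 12 libraries also brought the count to 0 and a further 2 to 1 and 3, while the fit without N40K replicate 1 at 3 months called 189 entries, the 9 among them. The part of sex in these genes was not tested otherwise.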

How the results depend on the processing

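The 3102 falls became 1676 under median-ratio scaling, 1913 under quantile normalization, 1424 after removal of the length trend and 1526 after removal of the GC trend, while 1876 rises were called in the last. In the libraries without Xist reads alone 669 genes were called, 403 higher and 266 lower. Left out in turn, single libraries gave 2581 to 4804 calls, 855 to 1446 higher and 1726 to 3358 lower. The lowest came without replicate 1 at 3 months (2581, 855 and 1726), and leaving out replicate 3 at 12 months gave 2664, 873 and 1791. The N40K count of 7395 ran from 6032 to 6990 with a library left out. The difference between genotypes gave 0 with sex as a covariate and 0 to 189 with a library left out. With the replicate number as a block 5085 genes were called, against 4492 without it, and 96.5% of the calls were kept. This block, which the labels do not give as a pairing, ended the call of Dlg4 and added those of Fos and Arc. It changed no other call among the genes named here.

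Of 165 called genes followed by name, 132 kept their call with each library left out, and 87 lost it in the libraries without Xist reads alone. None of the 165 changed sign under any setting that was run. Signs turned for genes that were not called. App became 0.023 under median-ratio scaling and 0.076 under quantile normalization, where Hnrnpu became 0.0036. Without the length trend both were called lower, App at -0.203 and Hnrnpu at -0.208. Jun became 0.048 and 0.045 under these scalings, 0.080 without the length trend and 0.131 without the GC trend, and ran from -0.063 to 0.016 with a library left out. Mbp became 0.023 with sex as a covariate, and Fos 0.051 in the libraries without Xist reads. Gfap ran from -0.078 to 0.098 with a library left out. The cause was not tested. The pseudocount understates differences of genes near 1 FPKM, and replicate 2 at 12 months, with a depth of 44.2 M, is limited most.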

Other observations

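A pair of genes outside every list, chosen after their values were seen, encode cold-inducible RNA-binding proteins. Rbm3 measured 38.8, 37.5 and 35.8 FPKM at 3 months and 16.6, 14.4 and 15.5 FPKM at 12 months, a difference of -1.22 ± 0.06 in limma (adjusted p = 0.000247). Cirbp measured 79.0, 68.0 and 62.9 FPKM at 3 months and 42.8, 37.6 and 35.9 FPKM at 12 months, a difference of -0.83 ± 0.10 (adjusted p = 0.00179). The ages did not overlap for either gene, and in N40K Rbm3 fell by 0.94 and Cirbp fell by 0.62.

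Of 80 small nucleolar RNA loci tested, 10 were called higher and 25 lower, with a median of -0.27. Of 302 zinc finger genes named Zfp 31 were called higher and 44 lower, with a median of -0.02. Over all genes 10.3% were called higher and 23% lower, so the Zfp rises were near the share of all genes.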
